A study of Mus musculus with 10 samples.

Results

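Chemokines and their receptors were followed through the DNA methylation of mouse lung. The group held 51 genes, of which 32 encode ligands, 15 encode signalling receptors and 4 (Ackr1, Ackr2, Ackr3 and Ackr4) encode atypical receptors. A window was assigned to a gene when it overlapped the RefSeq gene span on GRCm38 extended by 5000 bp on each side. Of the 446336 windows of 1000 bp measured in the series, 381 belonged to these genes, and 41 of the 51 genes had at least 1 window (24 ligands, 13 receptors and all 4 atypical receptors). No window lay at Ccl2, Ccl5, Ccl8, Ccl12, Ccl20, Ccl22, Cxcl13, Xcl1, Ccr9 or Cxcr6, so nothing is reported of them. Windows start every 500 bp and overlap, 21 of the 381 were shared by a pair of neighbouring genes, and 29 held the same calls as the next window, so windows are not independent measurements.

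Chemokines are small secreted proteins that set the direction in which leukocytes migrate. They act through receptors coupled to inhibitory G proteins, while the atypical receptors bind chemokines and remove or transport them without that signal. In the lung, macrophages, epithelium and endothelium release them, and Ccr4, the receptor of Ccl17 and Ccl22, is known for marking Th2 cells in allergic airways. Methylation of CpG sites near a gene start is commonly low where a promoter is CpG rich and higher where CpGs are sparse.

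DNA came from lung of female BALB/c mice, 8 weeks old at purchase. Methylated CpG calls were counted after bisulfite sequencing of captured regions (SureSelect Methyl-seq). The 3 groups were saline mice (n = 3), OVA mice (n = 3), which were sensitized with 50 µg ovalbumin and alum by intraperitoneal injection and challenged with 25 µg ovalbumin through the nose, and DSE mice (n = 4), which had the same ovalbumin treatment and received 200 mg/kg of *Descurainia sophia* seed extract by mouth on 7 days. The labels name the last group Herb and give no dose, so that dose and route come from the study's methods. Those methods also list an oral vehicle on the same days, without naming the group that received it. The labels name no engineered allele. Each mouse had 153328794 to 205414739 CpG calls over windows that do not overlap, and the median window of the chemokine and receptor genes held 378 to 521 calls per mouse. In 10 of the 381 windows a mouse had fewer than 20 calls (10 to 16 in the shallowest mouse of each), and in the other 371 the shallowest mouse had at least 23. A mouse entered a window only with 20 or more calls. Mice of 1 group differed more than counting alone gives, with a mean chi-square per window of 2.64 to 3.76 between 2 mice of a group where sampling noise gives 1. Lung is a mixture of cells, so a change in cell makeup and a change of methylation within a cell cannot be told apart in any value below.

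The bases before the gene start are shown for 6 genes that span the range of promoter methylation, from RefSeq (GRCm38), with each CpG in capitals. Each runs 5′ to 3′ along the gene's strand and ends at the base before the annotated start. The promoter table held 40 of the 51 genes.
Cxcr4, chr1:128592300-128592549, minus strand: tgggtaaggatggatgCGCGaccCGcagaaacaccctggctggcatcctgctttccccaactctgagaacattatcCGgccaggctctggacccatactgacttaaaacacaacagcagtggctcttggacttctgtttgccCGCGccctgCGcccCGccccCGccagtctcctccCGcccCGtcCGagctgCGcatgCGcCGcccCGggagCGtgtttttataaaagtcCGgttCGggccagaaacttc
Cxcl10, chr5:92348890-92349139, minus strand: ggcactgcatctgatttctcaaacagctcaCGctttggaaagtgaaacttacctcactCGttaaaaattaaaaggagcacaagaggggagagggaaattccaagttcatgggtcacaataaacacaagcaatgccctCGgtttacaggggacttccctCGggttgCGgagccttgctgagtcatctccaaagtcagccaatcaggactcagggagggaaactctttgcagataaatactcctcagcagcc
Cx3cl1, chr8:94771930-94772179, plus strand: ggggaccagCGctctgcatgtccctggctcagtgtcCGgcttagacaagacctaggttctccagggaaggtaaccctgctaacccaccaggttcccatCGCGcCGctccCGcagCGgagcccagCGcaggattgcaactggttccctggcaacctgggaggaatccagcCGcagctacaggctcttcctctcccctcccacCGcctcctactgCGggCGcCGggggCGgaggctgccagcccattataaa
Ccl3, chr11:83649379-83649628, minus strand: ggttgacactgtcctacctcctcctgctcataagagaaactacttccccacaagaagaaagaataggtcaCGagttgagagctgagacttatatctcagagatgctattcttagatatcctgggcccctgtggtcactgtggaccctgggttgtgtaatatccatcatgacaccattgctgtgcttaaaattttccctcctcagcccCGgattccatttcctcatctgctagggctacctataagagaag
Ccl9, chr11:83578637-83578886, minus strand: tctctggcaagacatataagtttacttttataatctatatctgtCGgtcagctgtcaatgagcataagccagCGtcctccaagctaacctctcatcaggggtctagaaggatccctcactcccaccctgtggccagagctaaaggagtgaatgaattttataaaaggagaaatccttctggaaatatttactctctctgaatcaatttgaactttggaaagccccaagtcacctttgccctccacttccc
Cxcl9, chr5:92328080-92328329, minus strand: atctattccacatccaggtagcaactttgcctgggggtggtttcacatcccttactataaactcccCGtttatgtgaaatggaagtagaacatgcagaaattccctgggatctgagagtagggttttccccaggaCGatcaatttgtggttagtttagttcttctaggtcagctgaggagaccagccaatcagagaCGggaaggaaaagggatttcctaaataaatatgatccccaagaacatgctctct
These 250 bases held 19 CpGs at Cxcr4, 14 at Cx3cl1, 5 at Cxcl10, 3 at Cxcl9 and 2 each at Ccl3 and Ccl9. Over the 32851 promoters of the table the median was 6, and 19.7% had at least as many CpGs as Cxcr4, 29.4% as Cx3cl1, 55.6% as Cxcl10, 71% as Cxcl9, and 81.2% as Ccl3 or Ccl9.

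Promoter methylation was taken over all windows whose centre lay within 1000 bp of the gene start, as the percentage of methylated calls in their sum. It could be given for 20 of the 51 genes, and it ran from under 1% to above 60% (means over the saline mice, SD over mice, n = 3). The lowest promoter was that of Cxcr4, the receptor of Cxcl12, at 0.749% ± 0.148. Ccl25, a ligand that draws T cells to thymus and gut, followed at 0.900% ± 0.161, and Cxcl12, the homeostatic ligand of Cxcr4, at 1.18% ± 0.307. Cxcl14 (3.75%), Cxcl10 (4.25%) and Cxcl2 (6.34%) completed the 6 lowest. The neighbours in this order did not separate, since the saline mice of Cxcr4 (0.632, 0.701 and 0.915%) lay within or beside those of Ccl25 (1.05, 0.734 and 0.911%) and Cxcl12 (0.824, 1.39 and 1.32%). At the other end stood Cxcl9 (64.4%), Ccl3 (63.7%), Ccl9 (60.3%), Cxcl17 (38.5%), Ackr3 (32.4%) and Pf4 (29.5%). The saline values of Cxcl9 (68.6, 62.7 and 61.8%) and Ccl3 (64.4, 65.5 and 61.3%) overlapped, whereas every saline mouse of Cxcl17 (39.0, 38.9 and 37.4%) lay below each of them.

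The 3 most methylated promoters belong to inflammatory ligands. Cxcl9 is an interferon-induced ligand of Cxcr3, Ccl3 is a macrophage inflammatory protein, and Ccl9 is a ligand of Ccr1 made by macrophages. The ordering followed CpG density: the 13 promoters with 20 or more CpGs per window were at 0.749 to 32.4% in saline mice, and the 7 with fewer were at 11.2 to 64.4%. Spearman's rho between the mean CpG number per window and the saline level was -0.716 over the 20 promoters, and -0.704 and -0.722 with the OVA and DSE levels, as a description over genes that share libraries. Cxcl16 (36.8 CpGs per window, 24.4%) stood above other promoters of like density, and Cxcl11 (11.5 CpGs per window, 11.2%) below.

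**Figure D1:**
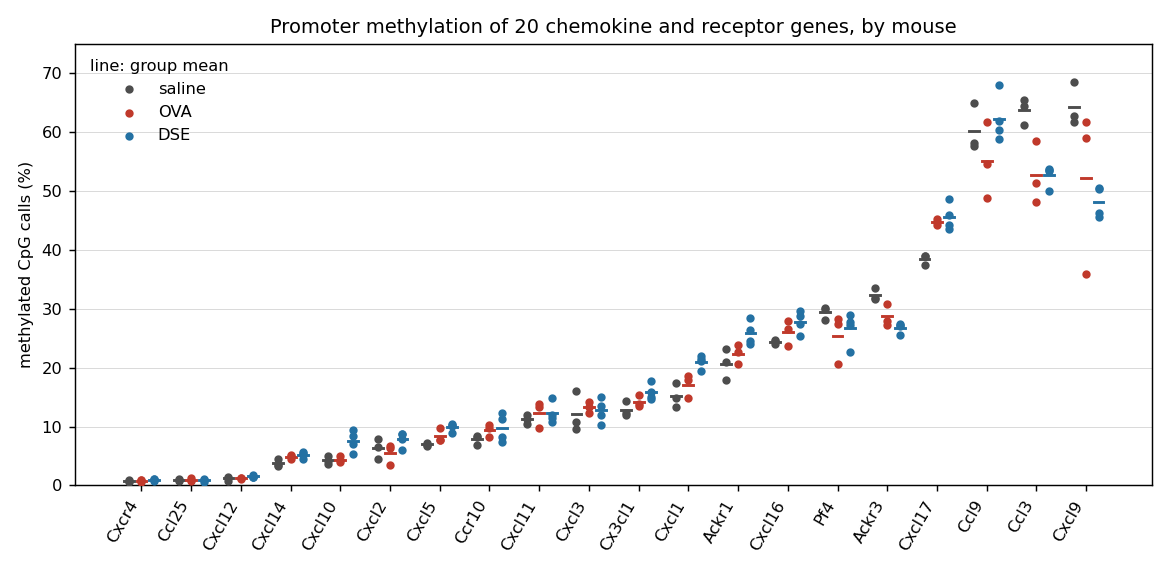
Methylated CpG calls (%) at the promoters of 20 chemokine and receptor genes, ordered by the saline mean; each point is 1 mouse (3 saline, 3 OVA, 4 DSE) and each short line a group mean. The levels run from 0.749% at Cxcr4 to 64.4% at Cxcl9 in saline mice, and the DSE mice sit above the saline mice at Cxcl1, Cxcl10 and Cxcl5 and below them at Ccl3, Cxcl9 and Ackr3.

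**Figure D2:**
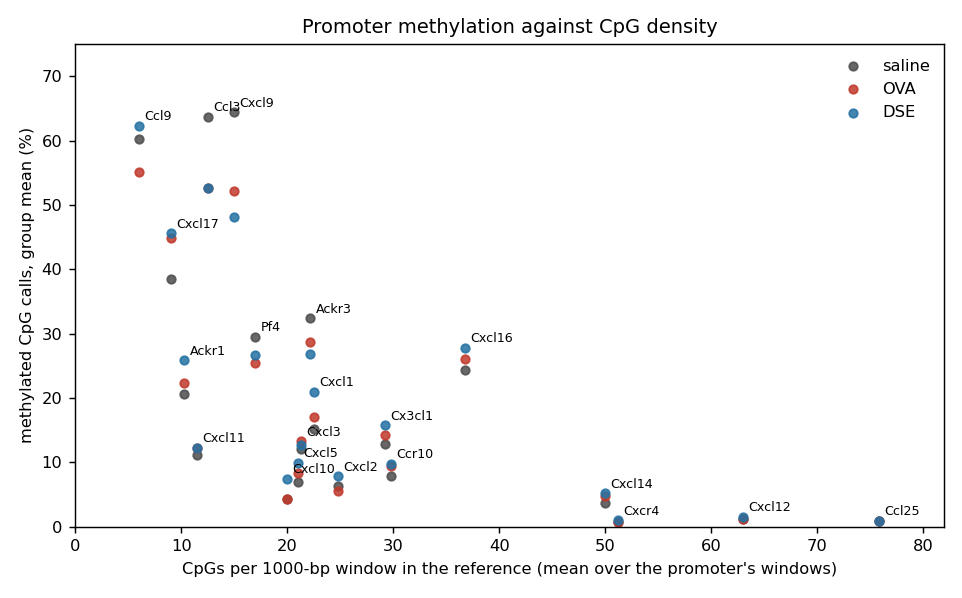
Promoter methylation (group mean, %) against the mean number of CpGs per 1000-bp window in the reference for the same 20 genes; each gene has 1 point per group. Promoters with 50 or more CpGs per window (Cxcl14, Cxcr4, Cxcl12 and Ccl25) were at 5.18% or less in each group, and Ccl9, with 6, was at 55.1 to 62.3%.

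Averaged over windows with equal weight, the 381 windows were at 47.5% ± 0.404 in saline, 46.8% ± 0.0918 in OVA and 46.9% ± 0.330 in DSE mice, where all windows of the series were at 52.0, 53.2 and 53.1%. Ligand windows were at 46.1, 45.0 and 44.8%, receptor windows at 48.3, 47.3 and 48.0%, and atypical receptor windows at 51.0, 52.9 and 52.4% in the same order. By position, promoter windows were at 19.6% in saline mice, and windows upstream, in exons, in introns and downstream were at 53.6, 55.5, 57.5 and 50.4%.

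The first comparison asked where ovalbumin-induced allergic inflammation was accompanied by other methylation at these genes. Hypo methylated windows outnumbered hyper methylated ones among the chemokine and receptor genes, and the largest differences were at Ccl9, Ccl6, Ccr4 and Cx3cr1. A window was called when a likelihood ratio test of the pooled calls had an adjusted p under 0.01 and the pooled difference was at least 10 percentage points. In OVA vs. saline, 23 of 379 tested windows were hypo methylated and 7 hyper methylated, which is 6.07% and 1.85%, beside 2.56% hypo and 4.75% hyper over all 436201 windows tested. The median difference was -0.0254 points over the gene group and 0.732 over all windows. Of the 24 ligand genes 7 had hypo methylated windows (Ccl3, Ccl4, Ccl6, Ccl9, Cxcl9, Cxcl16 and Pf4) and 1 hyper methylated windows (Cx3cl1). Ccl3 and Ccl4 share 1 called window. Of the 13 receptor genes 4 had hypo methylated windows (Ccr1, Ccr4, Cx3cr1 and Xcr1) and 1 a hyper methylated window (Cxcr4). By window, 7.07% were hypo and 1.01% hyper methylated at ligands, and 5.88% and 0.735% at receptors. The share of all genes with a called window was not counted, and a gene with more windows has more chances of a call. The atypical receptors were divided, with Ackr2 and Ackr4 hyper and Ackr1 hypo methylated. Of the 30 windows called, 28 had no overlap between the 3 OVA and the 3 saline mice, while 27.0% of all windows with 20 calls in every mouse and 104 of the 371 such windows of these genes (28.0%) did not overlap, 55 of them higher and 49 lower in OVA mice.

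The likelihood ratio test counts calls and ignores the spread between mice. An F test that scales for overdispersion called 0 windows of the group in any of the 3 comparisons. At an unadjusted p under 0.05 it gave 22 higher and 29 lower in OVA vs. saline, and its count over all windows is not given. In that comparison limma at an adjusted p under 0.01 called 0 windows of the group, where 2 of all 421759 windows had such a p. A limma fit on M-values (log2 of methylated plus 1 over unmethylated plus 1 calls) includes that spread, and it gave an adjusted p under 0.05 at 16 of 371 windows of the group in OVA vs. saline (5 higher and 11 lower), beside 3.74% of all windows. Of the 30 windows called, 12 were among these 16, at Ccl9, Ccr4, Cx3cr1, Ccr1, Pf4 and Cx3cl1. The other 4 windows were at Cxcr5, Ccr10 and downstream of the neighbours Ppbp and Pf4. With 3 mice against 3, an exact permutation test cannot give a p below 0.1, and each window below with no overlap between the groups had that value.

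**Figure D3:**
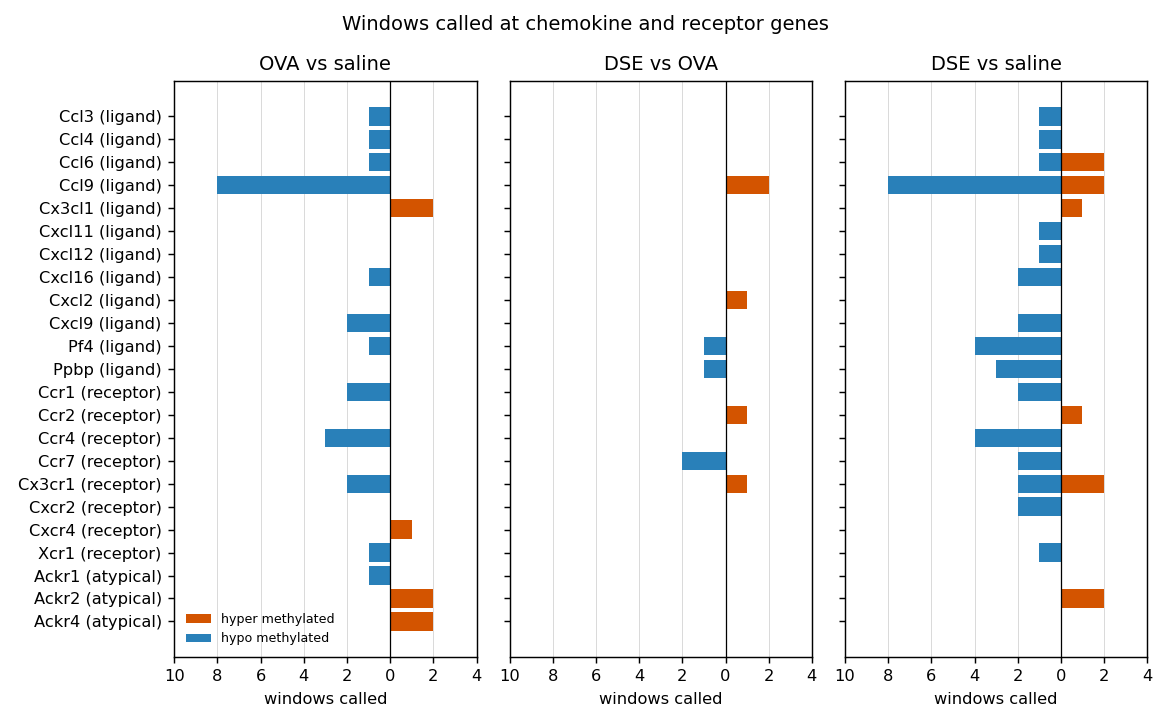
Number of windows called hyper methylated (orange, to the right) or hypo methylated (blue, to the left) at each gene with at least 1 call, in the 3 comparisons; a window shared by 2 genes counts for each. Ccl9 had 8 hypo methylated windows in OVA vs. saline, more than any other gene of the group, and DSE vs. OVA had the fewest calls.

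6 stretches of called windows are shown, each the 200 bases of the window with most CpGs outside every RefSeq exon, along the gene's strand with CpGs in capitals (GRCm38 genome).
Ccl9 3′ end, chr11:83572501-83572700, minus strand: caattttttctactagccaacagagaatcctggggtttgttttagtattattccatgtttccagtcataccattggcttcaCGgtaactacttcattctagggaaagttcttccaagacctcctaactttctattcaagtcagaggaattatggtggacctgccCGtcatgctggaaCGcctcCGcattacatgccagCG
Ccr4 upstream, chr9:114501028-114501227, minus strand: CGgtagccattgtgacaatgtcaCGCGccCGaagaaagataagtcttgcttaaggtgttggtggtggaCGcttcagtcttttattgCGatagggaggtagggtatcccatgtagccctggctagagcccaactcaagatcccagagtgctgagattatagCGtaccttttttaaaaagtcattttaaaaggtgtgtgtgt
Cx3cr1 intron, chr9:120055202-120055401, minus strand: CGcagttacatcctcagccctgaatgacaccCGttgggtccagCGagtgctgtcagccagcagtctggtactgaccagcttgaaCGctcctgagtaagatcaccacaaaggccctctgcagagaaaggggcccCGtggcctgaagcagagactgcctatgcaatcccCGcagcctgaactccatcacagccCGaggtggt
Ccr1 intron, chr9:123966906-123967105, minus strand: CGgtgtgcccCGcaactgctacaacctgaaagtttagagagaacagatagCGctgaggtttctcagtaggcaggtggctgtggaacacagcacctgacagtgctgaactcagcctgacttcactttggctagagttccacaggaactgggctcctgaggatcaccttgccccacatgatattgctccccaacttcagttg
Pf4 downstream, chr5:90775796-90775995, plus strand: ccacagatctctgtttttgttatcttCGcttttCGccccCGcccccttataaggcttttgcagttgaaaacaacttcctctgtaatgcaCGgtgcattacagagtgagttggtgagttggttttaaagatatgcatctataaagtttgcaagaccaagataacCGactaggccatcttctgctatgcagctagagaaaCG
Cx3cl1 downstream, chr8:94787678-94787877, plus strand: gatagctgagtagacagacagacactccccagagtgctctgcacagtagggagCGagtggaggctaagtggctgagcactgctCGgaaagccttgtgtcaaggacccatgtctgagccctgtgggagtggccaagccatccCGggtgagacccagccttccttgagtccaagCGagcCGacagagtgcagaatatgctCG
They held 5, 7, 7, 3, 6 and 6 CpGs. The Ccl9 stretch belongs to the window at the 3′ end but lies beyond the gene itself, whose span ends at position 83572917. The reference is C57BL/6J and the mice were BALB/c, so a C to T difference between strains would be read as unmethylated in all 10 mice alike.

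Ccl9, on the minus strand of chromosome 11, had the largest change. In the window at its 3′ end (chr11:83572501-83573500, overlapping the last exon outside the coding part) the saline mice had 75.2, 68.4 and 74.2%, the OVA mice 53.0, 49.8 and 51.7% and the DSE mice 43.5, 58.2, 48.6 and 54.6% methylated calls. Every ovalbumin-treated mouse, with or without DSE, lay below every saline mouse. The level fell by 21.7 points in OVA vs. saline (likelihood ratio test, adjusted p = 2.4e-16, limma adjusted p = 0.0246). A second stretch in the intron (window chr11:83577001-83578000) had 82, 66.9 and 66.9% in saline and 64.0, 48.8 and 54.2% in OVA mice, and it fell by 16.8 points (adjusted p = 1e-07) with a limma adjusted p of 0.108. The window chr11:83568501-83569500, centred 9635 bp from the start and beyond the gene's end, fell by 17.7 points, but here saline 1 (70.2%) lay below OVA 1 (70.6%). Together 8 of the 18 windows around Ccl9 were called hypo methylated, and without them 15 hypo methylated windows were left in the group.

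Ccl6 and Ccl3 belong to the same chromosome 11 cluster of inflammatory ligands as Ccl9. Upstream of Ccl6, a ligand of Ccr1 abundant in lung macrophages, the window chr11:83598001-83599000 was at 70.3, 58.8 and 61.9% in saline mice and 38.5, 48.3 and 39.5% in OVA mice. It fell by 21.5 points (adjusted p = 0.00575), but it held only 14 to 63 calls per mouse, 8 of 10 mice reached 20 calls, and the call was lost without OVA 1, OVA 3, saline 1 or saline 3. The 2 windows that Ccl6 shares with Ccl9 went the other way, from a mean of 36.9% in saline to 46.0% in OVA mice. Their pooled difference of 9.6 points was not called. The window over the start of Ccl3 (chr11:83648501-83649500) was at 58.5, 59.7 and 57.6% in saline and 51.7, 47.6 and 40.9% in OVA mice. It fell by 11.5 points (adjusted p = 9.96e-11, limma adjusted p = 0.0661). The same window counts for Ccl4 only because the wider RefSeq span of Ccl4 begins in it. The most upstream curated start of Ccl4 is at position 83662584, and Ccl4 had 0 promoter windows.

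Other ligands followed with smaller changes. The window downstream of Pf4, platelet factor 4 (chr5:90775501-90776500), was at 75.1, 76.2 and 75.9% in saline mice and 68.4, 60.4 and 63.9% in OVA mice, and it fell by 11.9 points (adjusted p = 1.69e-16, limma adjusted p = 0.0297). Without OVA 2 its change was -9.61 points and no longer a call. The window that overlaps it on the side of the gene (chr5:90775001-90776000), also counted for the neighbour Ppbp, stayed under 10 points with a change of -7.58 (limma adjusted p = 0.0433). Over the start and first exon of Cxcl9 (chr5:92327501-92328500) the saline mice had 68.6, 62.8 and 61.8% and the OVA mice 61.7, 58.8 and 35.9%. OVA 1 (61.7%) lay just below saline 3 (61.8%), OVA 3 stood far below the others, and the level fell by 10.5 points (adjusted p = 0.0003) with a limma adjusted p of 0.24. At Cxcl16, a transmembrane ligand of Cxcr6, the window chr11:70453501-70454500 also overlaps Med11, and it fell by 12.9 points (adjusted p = 0.00681, limma adjusted p = 0.117).

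Cx3cl1, the membrane-bound fractalkine of epithelium and endothelium, changed in the other direction. Its promoter window (chr8:94771001-94772000) was at 11.1, 14.2 and 14.4% in saline mice, 24.2, 22.1 and 28.3% in OVA mice and 19.4, 26.7, 22.1 and 22.6% in DSE mice. All ovalbumin-treated mice lay above all saline mice, and the level rose by 11.7 points in OVA vs. saline (adjusted p = 1.07e-10, limma adjusted p = 0.0272). A window beyond the gene's end (chr8:94787001-94788000) was at 39.9, 30.7 and 36.8% in saline and 48.2, 51.7 and 50.9% in OVA mice and rose by 13.7 points (adjusted p = 4.44e-16, limma adjusted p = 0.0348). Thus 2 of the 15 windows of the ligand were hyper methylated in OVA mice, while its receptor Cx3cr1 was hypo methylated in an intron. Over all windows of the Cx3cl1 promoter the saline mice had 12.0, 12.3 and 14.3% and the OVA mice 13.5, 13.9 and 15.3%. These mice overlapped (limma adjusted p = 0.495). Its neighbourhood (the gene and 5000 bp on each side) went from 32.5 to 34.8% (limma adjusted p = 0.224).

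Among the receptors, Ccr4 had the largest change. Its window centred at -4457 bp from the most upstream curated start (chr9:114500501-114501500), which lies inside the wider RefSeq span of the gene, was at 72.9, 73.0 and 71.9% in saline mice, 61.5, 52.3 and 54.8% in OVA mice and 64.5, 59.7, 56.0 and 55.2% in DSE mice. The 3 saline mice lay close together and above all others, and the level fell by 16.4 points in OVA vs. saline (adjusted p = 6.61e-17, limma adjusted p = 0.0282). A further window upstream (chr9:114502501-114503500) fell by 10.8 points, from 73.8, 71.4 and 63.9% to 59.2, 62.5 and 54.8% (adjusted p = 1.93e-07, limma adjusted p = 0.0773).

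Cx3cr1, the fractalkine receptor of monocytes and macrophages, had an intronic window (chr9:120054501-120055500) at 54.7, 51.5 and 49.8% in saline mice, 36.4, 37.5 and 36.7% in OVA mice and 42.2, 41.6, 45.0 and 33.1% in DSE mice. It fell by 15.1 points in OVA vs. saline (adjusted p = 3.21e-12, limma adjusted p = 0.0381). At Ccr1, a receptor of Ccl3, Ccl6 and Ccl9 on myeloid cells, the intronic window chr9:123966501-123967500 went from 88.9, 85.6 and 89.2% to 77.9, 80.5 and 73.8% and fell by 10.3 points (adjusted p = 0.00106, limma adjusted p = 0.0284). This call was lost without OVA 3, saline 1 or saline 3. At the 3′ exon of Xcr1, a receptor of cross-presenting dendritic cells, the window chr9:123853001-123854000 fell by 11.9 points (adjusted p = 0.000279, limma adjusted p = 0.149).

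Cxcr4 was the receptor with a hyper methylated window. Its window centred at -2702 bp from the gene start (chr1:128594501-128595500) was at 53.9, 46.8 and 54.8% in saline, 68.6, 62.3 and 67.5% in OVA and 55.1, 54.8, 64.6 and 58.3% in DSE mice and rose by 14.4 points (adjusted p = 3.21e-05, limma adjusted p = 0.0515). Cxcr5, the receptor of Cxcl13 on B and follicular helper T cells, did not reach 10 points in an exon window (chr9:44513501-44514500), where the mean was 66.9% in saline and 76.4% in OVA mice, but its limma adjusted p was 0.0386. Near Ccr10 the window with a limma adjusted p of 0.0479 (chr11:101171001-101172000) lay at the start of the neighbouring gene Plekhh3 and moved from 0.553 to 1.03%.

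The atypical receptors had 5 of their 45 windows called, 8.89% hyper and 2.22% hypo methylated, beside 4.75% and 2.56% of all windows. Ackr4, a scavenger of Ccl19, Ccl21 and Ccl25, had a window beyond its end inside Acad11 (chr9:104095501-104096500) at 67.4, 64.8 and 61.6% in saline and 83.2, 73.0 and 81.8% in OVA mice, which rose by 14.6 points (adjusted p = 9.31e-11, limma adjusted p = 0.0553). Ackr2, a scavenger of inflammatory CC ligands, had a window over an exon outside the coding part (chr9:121905501-121906500) at 26.9, 28.4 and 16.9% in saline and 41.6, 41.8 and 31.4% in OVA mice. It rose by 14.5 points (adjusted p = 0.00451, limma adjusted p = 0.112), at 51 to 86 calls per mouse, and the call was lost without OVA 1, OVA 2 or saline 3. Downstream of Ackr1, the chemokine-binding Duffy receptor of venular endothelium, the window chr1:173329501-173330500 fell by 14.1 points, from 37.0, 51.1 and 44.7% to 25.3, 36.4 and 20.4% (adjusted p = 0.00227, limma adjusted p = 0.0793). It was lost without OVA 1, OVA 3 or saline 2.

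**Figure D4:**
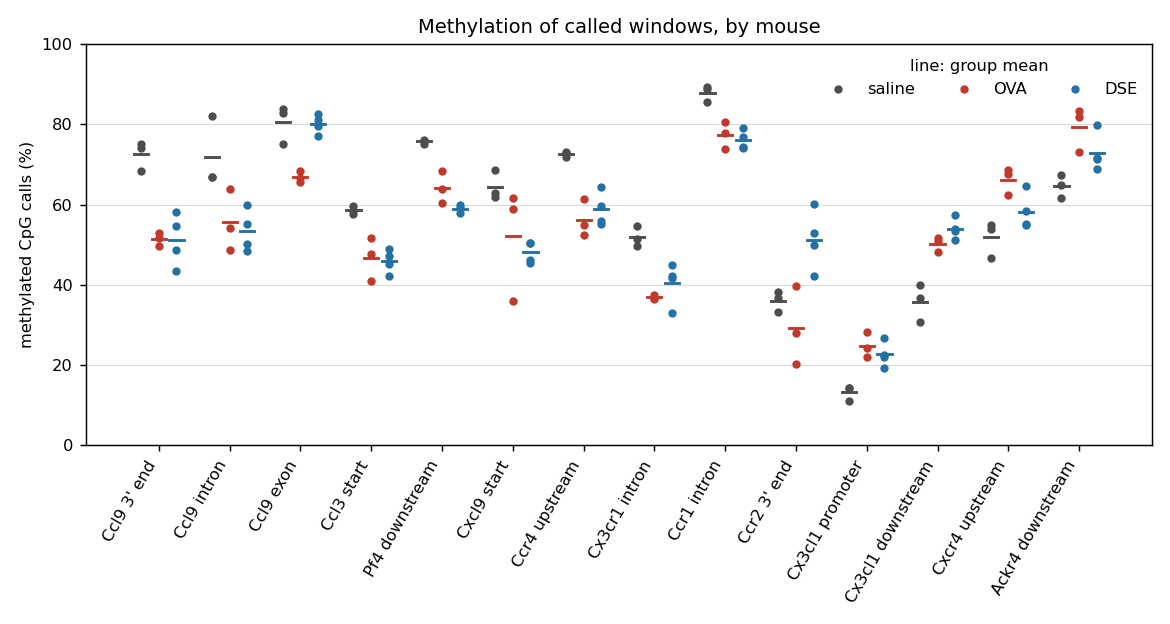
Methylated CpG calls (%) in 14 windows of chemokine and receptor genes; each point is 1 mouse and each short line a group mean. Saline mice lie above OVA mice in the windows of Ccl9, Ccl3, Pf4, Cxcl9, Ccr4, Cx3cr1 and Ccr1 and below them at Cx3cl1, Cxcr4 and Ackr4, while at the Ccl9 exon (75 to 83.7% in saline and 77.0 to 82.6% in DSE mice) and the Ccr2 3′ end the DSE mice lie above the OVA mice.

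**Figure D5:**
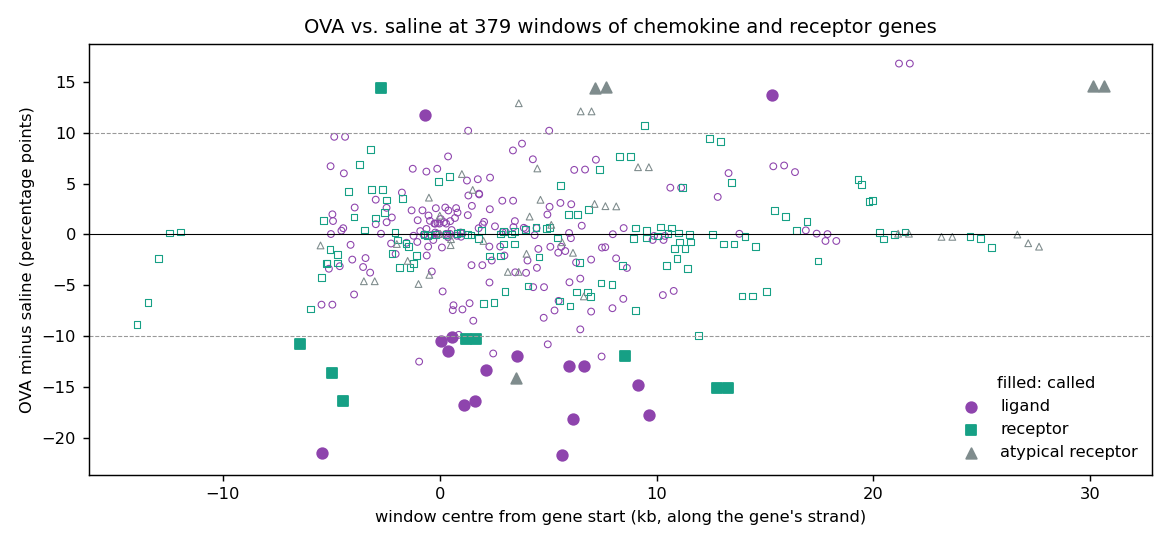
Pooled difference of OVA minus saline (percentage points) at 379 windows against the distance of the window centre from the gene start (kb, positive into the gene), by role; filled symbols are called windows and dashed lines the 10-point threshold. Called windows lie on both sides of the gene start, and the 2 lowest are ligand windows, at Ccl9 (-21.7) and Ccl6 (-21.5).

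Most promoters in the list of genes shared by all leukocytes moved with this comparison, and fewer did in the lists of single leukocyte types. The promoters of 8 genes used by all leukocytes (among them Ptprc, which encodes CD45) averaged 46.8 to 47.2% in saline mice, 35.4 to 38.9% in OVA mice and 35.4 to 38.4% in DSE mice. Of the 8, 6 were called lower in OVA vs. saline (limma adjusted p under 0.05), beside 2.80% of all promoters called in either direction. The other 2, Coro1a (3.76 to 4.12%) and Ikzf1 (8.54 to 10.3%), were higher and not called. The Ptprc promoter went from 63.0% to 46.7% (adjusted p = 0.0200). Myeloid marker promoters (4 of 8 measured) averaged 52.7 to 57.1% in saline and 50.1 to 53.3% in OVA mice, T cell promoters (3 of 6) 82.3 to 82.9% and 78.6 to 81.5%, B cell promoters (3 of 4) 53.6 to 58.7% and 51.6 to 56.5%. Among T cell promoters 1 was called, that of Cd4 (95 to 88.8%, limma adjusted p = 0.0251), and among B cell promoters 0. Epithelial promoters (5 of 8) averaged 32.3 to 36.1% and 32.4 to 35.4%, endothelial ones (3 of 5) 22.9 to 27.1% and 27.2 to 30.7%. Over neighbourhoods 6.45% of all genes were called by limma. Of 5 endothelial genes 3 were called higher in OVA mice (Tek from 39.2 to 51.3%, Tie1 from 55.3 to 63.6% and Cldn5 from 8.20 to 10.4%). Of 7 myeloid genes 2, both of eosinophil granule proteins, were called lower (Prg2 from 65.4 to 52.1% and Epx from 78.3 to 73.7%). Of the 8 leukocyte genes 4 were called lower, and 2 had a higher, uncalled level. Of endothelial and myeloid promoters 0 were called, and that of Prg2 went from 62.8 to 59.2% (limma adjusted p = 0.583). The part of cell makeup in the windows above was not tested.

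Gene-level values gave fewer calls. In OVA vs. saline 0 of the 20 promoters had a limma adjusted p under 0.05, beside 2.80% of 27111 promoters of all genes, and 3 had an unadjusted p under 0.05. The nearest was Ccl3, at 64.4, 65.5 and 61.3% in saline and 58.6, 51.3 and 48.1% in OVA mice (limma M-value difference -0.66, SE 0.16, adjusted p = 0.0578). Cxcl17, a mucosal chemokine, was at 39.0, 38.9 and 37.4% and at 44.2, 45.3 and 44.8% (difference 0.37, SE 0.11, adjusted p = 0.0997). Over the whole neighbourhood of each gene (the gene and 5000 bp on each side) 5 of 40 genes were called, beside 6.45% of 37224 genes, each lower in OVA mice. They were Ccl9, Pf4, Xcr1 and the neighbours Ccl3 and Ccl4, whose neighbourhoods hold the same windows. The Ccl9 neighbourhood went from 67.2% ± 1.91 to 58.1% ± 3.99 (difference -0.56, SE 0.12, limma adjusted p = 0.0300), that of Pf4 from 58.8 to 53.7%, those of Ccl3 and Ccl4 from 70.4 to 62.8% and that of Xcr1 from 3.45 to 2.72%. As a mean of its windows the Xcr1 neighbourhood was at 20.9 and 18.1%, with a limma adjusted p of 0.594 for averaged M-values. With any 1 mouse left out 0 to 3 genes were called (0 without OVA 2, OVA 3, saline 1 or saline 2). With M-values averaged over windows only Ccl9 was called (limma adjusted p = 0.0481), beside 3.05% of all genes.

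The second comparison asked where the seed extract was accompanied by other methylation in ovalbumin-treated mice. Fewer windows differed: of 379 tested, 5 had gained and 3 had lost methylation in DSE vs. OVA mice (1.32% and 0.792%), beside 0.898% and 0.725% of 437460 windows. Hyper methylated windows lay at Ccl9, Cxcl2, Ccr2 and Cx3cr1, and hypo methylated ones at Ccr7 and downstream of the neighbours Ppbp and Pf4. Only 3 of the 8 windows called had no overlap between the 4 DSE and 3 OVA mice, and over the group 45 of 371 windows (12.1%) did not overlap, beside 10.3% of all windows. With 3 against 4 mice the smallest p of an exact permutation test is 0.0571. The median difference was 0.022 points over the gene group and -0.0354 over all windows. This comparison shares its OVA mice with the first. Without the windows of Ccl9, 3 hyper methylated windows were left.

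Ccr2, the receptor of Ccl2 on inflammatory monocytes, had the largest change without overlap. The window at its 3′ exon outside the coding part (chr9:124108501-124109500) was at 60.1, 50, 52.8 and 42.1% in DSE mice, 28.0, 39.7 and 20.4% in OVA mice and 38.2, 33.3 and 36.7% in saline mice. Every DSE mouse lay above every OVA and every saline mouse, the level rose by 22.4 points in DSE vs. OVA (adjusted p = 1.95e-12, exact permutation test p = 0.0571), and the limma adjusted p was 0.123. The window over a coding exon of Ccl9 (chr11:83576001-83577000) was at 83.7, 82.7 and 75% in saline, 65.6, 66.7 and 68.4% in OVA and 81.1, 82.6, 79.5 and 77.0% in DSE mice. It fell by 13.3 points in OVA vs. saline (adjusted p = 0.00377, limma adjusted p = 0.0357) and rose by 13.2 points in DSE vs. OVA (adjusted p = 0.000583, limma adjusted p = 0.0735). Both differences rest on the same 3 OVA mice, and the first was lost without OVA 1, OVA 2, saline 1 or saline 2. Downstream of Ppbp and Pf4, neighbouring genes of platelet chemokines, the window chr5:90774001-90775000 was at 54.0, 56.0 and 44.1% in OVA and 42.1, 37.2, 38.5 and 39.7% in DSE mice. It fell by 12.1 points (adjusted p = 0.000562, limma adjusted p = 0.303), and the call was lost without OVA 2.

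In the other windows called the mice overlapped. A 3′ exon window of Cx3cr1 (chr9:120048501-120049500) had 28.8, 25.6 and 6.82% in OVA and 15.9, 46.8, 61.5 and 46.3% in DSE mice, at 39 to 69 calls per mouse. The Cxcl2 window chr5:90904001-90905000 begins just past the gene start and overlaps coding sequence of this neutrophil attractant. It had 31.0, 16.9 and 21.7% in OVA and 36.2, 42.2, 48.4 and 26.0% in DSE mice. The promoter window of Ccl9 had 60.5, 45.4 and 46.2% and 62.6, 62.6, 56.3 and 68.0%, and the window downstream of Ccr7, the receptor that guides cells to lymph nodes, 56.8, 47.3 and 68.1% and 46.7, 52.3, 52.4 and 36.9%.

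limma gave an adjusted p under 0.05 at 2 of 371 windows in DSE vs. OVA, both higher, beside 0.418% of all windows. Upstream of Ccr4, in a window of low methylation (chr9:114497501-114498500), the DSE mice had 11.7, 7.01, 14.8 and 8.60%, the OVA mice 2.55, 2.07 and 1.96% and the saline mice 4.83, 1.65 and 3.46% (limma adjusted p = 0.0341). The other lay beyond the end of Cxcl16 at the start of Med11 (chr11:70452001-70453000), with 12.2, 12.3, 13.1 and 9.89% in DSE and 4.64, 5.99 and 5.49% in OVA mice (limma adjusted p = 0.0174). In both, each DSE mouse exceeded each OVA and saline mouse, and the pooled differences of 8.08 and 6.47 points were under the 10-point threshold.

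At promoters, Cxcl10, an interferon-induced ligand of Cxcr3, was the 1 gene of 20 called in DSE vs. OVA, beside 10.1% of all promoters. It had 8.34, 5.25, 9.39 and 7.03% in DSE, 4.24, 5 and 3.89% in OVA and 5.01, 3.59 and 4.16% in saline mice (limma M-value difference 0.80, SE 0.21, adjusted p = 0.0390). The groups did not overlap, but the call was lost without DSE 1, DSE 3, DSE 4, saline 3 or any 1 of the OVA mice. Of neighbourhoods 4 of 40 were called, all higher, beside 18.7% of all genes. They were Cxcl11 (43.0 to 52.3%), Cxcl1 (23.4 to 32.3%), Cxcr4 (9.34 to 11.8%) and Ccl25 (9.14 to 12.6%; limma adjusted p of 0.000871, 0.00324, 0.00534 and 0.00998). These sums give each window its weight in calls, and the DSE mice had a smaller share of their calls in windows of low methylation (under 20% in saline mice): 40.08 to 41.85% of calls, against 43.8 to 45.52% in OVA and 43.05 to 43.49% in saline mice. The part of this shift in the gene-level values was not tested apart from the averaging that follows. With M-values averaged over windows, 0 of 20 promoters and 0 of 40 neighbourhoods were called in DSE vs. OVA (4 of each had an unadjusted p under 0.05). Over all genes the averaging left 0.531% of promoters and 0.0161% of neighbourhoods called. The Cxcl11 neighbourhood was at 56.2 and 55.3% as a mean of its windows, and the direction turned at Cxcl11 and Ccl25.

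The third comparison set DSE mice against saline mice and shares its mice with the other two. It had more hypo methylated windows at these genes than either: 33 of 381 were hypo and 8 hyper methylated (8.66% and 2.10%), beside 3.07% and 4.95% of 440215 windows. By gene, 10 ligands, 6 receptors and no atypical receptor had hypo methylated windows, and 3 ligands, 2 receptors and 1 atypical receptor hyper methylated ones. By window, 10%, 9.56% and 0% were hypo and 1.5%, 2.21% and 4.44% hyper methylated in the same order. Over the group 101 of 371 windows (27.2%) had no overlap between the mice, beside 24.3% of all windows, and limma gave an adjusted p under 0.05 at 41 windows (20 higher and 21 lower), beside 7.25% of all windows. Of the 41 windows called, 21 were among these.

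The largest differences were at the Ccl6, Cx3cr1 and Ccl9 windows already described. Upstream of Ccl6 the DSE mice had 23.5, 26.7, 42.9 and 36.8%, and the level fell by 32.9 points from the saline mice (adjusted p = 2.11e-06). At the 3′ exon of Cx3cr1, where the saline mice had 13, 11.1 and 25%, it rose by 26.6 points (adjusted p = 5.18e-08, limma adjusted p = 0.141), although DSE 1 (15.9%) lay among the saline mice. At the 3′ end of Ccl9 it fell by 21.8 points (adjusted p = 1.49e-22, limma adjusted p = 0.0124). Downstream of Pf4 the DSE mice had 59.1, 58.0, 59.8 and 58.8% against 75.1, 76.2 and 75.9% in saline mice, a change of -16.8 points with the lowest limma adjusted p among the called windows, 0.00877.

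The likelihood ratio call of the Cx3cr1 intron was lost without DSE 4 or saline 1, and that of Cxcl16 (chr11:70453001-70454000) without saline 1 or saline 2. The hypo methylated windows that also passed limma lay at Ccl9, Ccl3 and Ccl4, Ppbp and Pf4, Cxcl16, Ccr1, Ccr4 and Cx3cr1. Upstream of Ccr4 they included a window centred at -13957 bp from the start (chr9:114510001-114511000), at 91.1, 88.9 and 91.2% in saline and 75.8, 80.9, 74.5 and 79.7% in DSE mice (change -12.5 points, limma adjusted p = 0.0224). Hyper methylated windows that passed limma lay at Cx3cl1 (downstream, 17.3 points, limma adjusted p = 0.0115), at another 3′ window of Cx3cr1 (68.6 to 81.6%, limma adjusted p = 0.0240) and between Ccl9 and Ccl6. In the last the saline mice had 37.4, 34.9 and 38.5% and the DSE mice 48.4, 50.8, 47.5 and 57.3% (14 points, limma adjusted p = 0.0316), and the likelihood ratio call was lost without DSE 4. The 20 limma windows that were not called, each under the 10-point threshold, were at Ackr3, Cxcl1, Cxcl5, Cxcl10, Cxcl12, Cx3cl1, Cxcr5, Ccr4 and Cxcl16, downstream of Ppbp and Pf4 and near Ccr10 at Plekhh3.

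Promoters of the gene group differed most often between DSE and saline mice. Of 20 promoters 7 were called by limma, 5 of them higher and 2 lower, beside 14.6% of all promoters, where 3413 of 3954 calls were higher. Cxcl1 had 17.4, 13.4 and 14.8% in saline and 19.5, 21.9, 21.1 and 21.5% in DSE mice (M-value difference 0.57, SE 0.14, limma adjusted p = 0.0250). Cxcl5 had 7.25, 6.92 and 6.70% and 8.94, 10.5, 10.3 and 10.1% (0.56, SE 0.13, limma adjusted p = 0.0194). The groups did not overlap at either gene. Both encode neutrophil attractants, as do Cxcl2 (6.34 and 7.86%, limma adjusted p = 0.419) and Cxcl3 (12.1 and 12.7%, limma adjusted p = 0.79), which were not called. Cxcl10 (4.25 to 7.50%), Cxcl14 (3.75 to 5.18%) and Cxcl17 (38.5 to 45.6%) also rose. Ccl3 fell from 63.7% ± 2.13 to 52.7% ± 1.76 (-0.66, SE 0.15, limma adjusted p = 0.0205), and Ackr3, a scavenger of Cxcl12, from 32.4 to 26.8% (limma adjusted p = 0.0388). With M-values averaged over windows 3 were called (Ccl3, Cxcl1 and Cx3cl1), beside 5.2% of all promoters. In the fit of summed calls without saline 2 no promoter of the group was called. The Ccl3 call was also lost without saline 1, and that of Cxcl5 without saline 3 or DSE 2. The other 5 calls were lost in at least 4 of the fits that left out 1 mouse, that of Ackr3 without any 1 of the saline or DSE mice. In this comparison too 6 of the 8 leukocyte marker promoters were lower by limma, whereas 0 of 8 were called in DSE vs. OVA.

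Of neighbourhoods 14 of 40 were called in DSE vs. saline, 8 higher and 6 lower, beside 26.1% of all genes. Higher were Ackr4, Ccl6, Ccl25, Cx3cl1, Cxcl1, Cxcl5, Cxcl11 and Cxcr4, and lower were Ackr3, Ccl3, Ccl4, Ccl9, Cxcr2 and Pf4. The neighbourhood of Ccl6 rests on the 2 windows it shares with Ccl9, since the upstream window above had a mouse under 20 calls. With M-values averaged over windows 5 were called, at Ccl6, Cx3cl1, Cxcl1, Cxcr2 and Pf4, beside 7.52% of all genes. Of these, Pf4 (60.6 to 52.8% as a mean of its windows) and Cxcr2 (63.7 to 56.3%), a receptor of neutrophils, were lower. That averaging turned the direction at Ackr3, Cxcl11 and Ccl25. The mice overlapped at Cxcr2 (exact permutation test p = 0.114), and its call was lost without saline 1, saline 3, OVA 2, OVA 3, DSE 2 or DSE 4. The call of Ccl25 was lost without saline 1, saline 2, DSE 2 or DSE 3, that of Cx3cl1 without saline 2, that of Cxcr4 without any 1 of the DSE mice, saline 1, saline 2 or OVA 2, and that of Ackr4 without any 1 mouse except OVA 1 or DSE 1.

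Genes that carry the signal of chemokine receptors were described from a list of 74 G proteins, kinases and adaptors, of which 72 had a promoter level. In OVA vs. saline 5 promoters were lower and 1 higher by limma. The lower ones were Dock2 (62.2 to 42.9%), a guanine exchange factor of migrating lymphocytes, the regulators of G protein signalling Rgs18 (63.3 to 48.8%) and Rgs1 (61.5 to 49.0%), Vav1 (48.4 to 34.4%) and Was (66.2 to 58.1%). Vav1 and Was also stand in the leukocyte marker list. The higher one was Mapk3, the kinase ERK1 (6.68 to 13.8%). These 6 of 72 stand beside 2.80% of all promoters. In DSE vs. OVA 10 were higher and 0 lower, beside 10.1% of all promoters, of whose 2739 calls 2638 were higher. In DSE vs. saline 10 were higher and 7 lower, beside 14.6% of all promoters. With M-values averaged over windows 0 were higher and 3 lower in OVA vs. saline, 0 were called in DSE vs. OVA, and 5 were higher and 7 lower in DSE vs. saline, where the majority thus turned. Averaged in this way, 1.5, 0.531 and 5.2% of all promoters were called in the order of the comparisons. Of the 1409 promoters so called in DSE vs. saline 1087 were higher.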

How the data were processed

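Methyl-seq data of lung DNA from 10 mice (3 saline, 3 OVA and 4 DSE) were used. Per the labels' processing notes the authors trimmed reads with cutadapt 1.10, used Bismark 0.19.0 with the mm10 build for alignment, and ran methylKit 1.0.0. The deposited table holds, for each mouse, counts of CpG calls (coverage), of methylated calls and of unmethylated calls in windows of 1000 bp that start every 500 bp. Capture, conversion and alignment to a C57BL/6J reference can shift these counts in all mice. Calls are not independent molecules, so depth bounds counting error only. Each library is 1 mouse.

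The percentage was 100 times methylated calls over coverage, with at least 20 calls per mouse and at least 2 mice per group. Each window was tested with a binomial likelihood ratio test on pooled calls (numpy 2.4.6, scipy 1.17.1, Python 3.11.15), with Benjamini-Hochberg adjustment over all windows, and a call needed an adjusted p below 0.01 together with 10 or more points of difference. Windows, promoters and neighbourhoods were also fitted with limma 3.58.1 (R 4.3.3) on M-values with 1 added to each count, all 10 mice, Benjamini-Hochberg adjusted p under 0.05. Exact permutation tests were two-sided. The window test was checked on simulated data in which mice of a group differed by counting alone. That check cannot tell how often the larger spread between real mice gives a call.

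Genes came from RefSeq on GRCm38, and their members and all lists were chosen with earlier results of these data known. Windows named in full were the 10 largest called regions without overlap between mice in OVA vs. saline and up to 8 in DSE vs. OVA (at most 2 a gene), the 3 largest in DSE vs. saline, windows called in both of the first comparisons with opposite signs, all with a limma adjusted p under 0.05, and the 6 lowest and 6 highest promoters. Other called windows, the values of Cxcl9, Cxcl16, Xcr1 and Ccl3 among them, were named after their values were seen. Alternatives were other minimum calls, thresholds, tests, gene spans, summaries over windows, a replicate block and leaving out each mouse. Mice with the same replicate number did not deviate together.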

Additional observations from a re-analysis of the deposited data

Results flagged for a closer look

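Among 71 sets of 4 DSE values tested for a mouse far from the others, 3 had one whose gap to its neighbour, over the range, exceeded Dixon's 95% critical value, where chance gives about 1 in 20 sets. At the Ccl3 promoter DSE 4 was lowest at 50.1%, with the next mouse at 53.4%. In the Cxcl1 promoter window starting at position 90890501 of chromosome 5 DSE 1 was lowest at 4.9%, with the next at 6.05%. In the Ccr4 upstream window starting at position 114502501 of chromosome 9 DSE 1 was lowest at 52.9%, with the next at 55.7%.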

How the results depend on the processing

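The counts of called windows rest on a test of pooled calls that ignores the spread between mice. With an F test that scales for overdispersion, 0 windows were called in any comparison (hyper and hypo at an unadjusted p under 0.05: 22 and 29 for OVA vs. saline, 23 and 10 for DSE vs. OVA, 47 and 51 for DSE vs. saline). The F test counts over all windows are not given, so these counts have no share to stand beside. With limma at an adjusted p under 0.01 and 10 points, 0 were called except 1 hypo methylated in DSE vs. saline. Without the 10 points, 2, 40 and 1283 of all 421759 windows had such a p in the order of the comparisons. An unadjusted p under 0.05 was found at 38 and 41, 26 and 14, and 54 and 54 of 371 windows. Over all windows, both directions together, it was found at 93997, 41647 and 105473 of 421759. With limma at an adjusted p under 0.05 and no threshold on the difference, chosen after seeing the data, 5 were higher and 11 lower in OVA vs. saline. By that rule 2 were higher and 0 lower in DSE vs. OVA, and 20 higher and 21 lower in DSE vs. saline. A difference of 20 points left 0 hyper and 2 hypo, 2 and 0, and 1 and 2. Windows that do not overlap gave 4 and 10 in OVA vs. saline, 2 hyper in DSE vs. OVA, and 4 and 16 in DSE vs. saline. Genes extended by 2000 bp gave 5 hyper in DSE vs. saline. Without the windows of Ccl9 (added after seeing the data) 15 hypo (OVA vs. saline) and 3 hyper (DSE vs. OVA) were left.

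Of promoters, 1 was called in OVA vs. saline with windows of 50 calls in every mouse or with a variance trend and robust moderation, and 4 in DSE vs. OVA from 2000 bp upstream to 500 bp downstream. M-values averaged over windows gave 0 in DSE vs. OVA and 3 in DSE vs. saline, and for neighbourhoods 1, 0 and 5 in the order of the comparisons. Over all genes this averaging called 0.531 and 5.2% of promoters, and 3.05, 0.0161 and 7.52% of neighbourhoods, in the same order. That averaging turned the direction (M-value difference) at Cxcl11 (-0.0818) and Ccl25 (-0.0847) in DSE vs. OVA, and at Ackr3 (0.124), Cxcl11 (-0.0826) and Ccl25 (-0.176) in DSE vs. saline. With only the mice of both groups, 0 promoters were called in DSE vs. OVA and 0 neighbourhoods in OVA vs. saline. The cause was not tested.

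Same-numbered mice did not deviate together (correlations of -0.0273 to 0.0785), so the numbers do not pair them. A replicate block left 1 hypo methylated window in DSE vs. OVA and 5 hyper in DSE vs. saline (Cochran-Mantel-Haenszel), 0 windows by limma at 0.05 in any comparison, 0 promoters in either comparison with DSE, and in the comparisons with saline 0 neighbourhoods for OVA and 9 for DSE.

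Leaving out 1 mouse at a time gave 6 to 11 hyper and 15 to 28 hypo methylated windows in OVA vs. saline, 4 to 9 and 3 to 7 windows in DSE vs. OVA, and 6 to 12 and 25 to 37 in DSE vs. saline. Promoters called ranged from 0 to 1, 0 to 1 and 0 to 8, and neighbourhoods from 0 to 3, 4 to 6 and 10 to 14. The Ccl9 exon window in DSE vs. saline, at -0.12 points, was at 0.111 without DSE 3, 0.65 without DSE 4, 1.65 without saline 1 and 0.923 without saline 2, and its range was -3.06 to 1.65. Over all single windows and alternatives 1232 values kept direction and side of the threshold, 207 lost and 31 gained a call and 4 changed sign, and for single genes 345 did, 153 lost a call and 5 changed sign.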
